A study of Mus musculus with 9 samples.

Results

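The proteasome subunit genes were the 43 gene rows whose symbol is Psma, Psmb, Psmc, Psmd or Psme followed by a number, out of 23279 rows with a gene symbol. They comprised 8 Psma, 11 Psmb, 6 Psmc, 14 Psmd and 4 Psme symbols. The pattern takes in 3 chaperones of assembly (Psmd5, Psmd9 and Psmd10) and 2 subunits of single tissues (Psma8 of the testis and Psmb11 of the thymus). It leaves out proteasome proteins with other symbols, such as Adrm1 and Shfm1, which are described with the associated genes. Of the 43, 42 averaged 1 raw FPKM or more across the 9 libraries and were tested. Psmb11 was below that level and was not tested.

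The libraries came from primary mouse pro-B cell cultures, 3 in each of 3 groups. Bone marrow from animals 6 to 8 weeks old, freed of red cells by lysis, was grown in methylcellulose with interleukin-7, and colonies were pooled after 7 days. The groups were wild-type littermates, Hmgn1-overexpressing mice on C57BL/6, and Ts1Rhr mice on an FVB x C57BL/6 F1 background, which carry an extra copy of a chromosome segment that holds Hmgn1. The promoter and species of the Hmgn1 transgene, and the background of the littermates, are not stated in the sources used here, and strain cannot be told apart from genotype. RNA came from a fixed number of cells, and 1 µl of ERCC synthetic spike-in RNA diluted 1 in 1000 was added to each sample so that levels could be scaled per cell. The labels call the samples biological replicates without naming animals, and p-values reflect only how far these samples differ, which may be technical. In bulk RNA, fewer cells of a type and less RNA per cell cannot be told apart. The series title asks whether trisomy of the segment raises transcription globally through HMGN1, and the proteasome genes are used in all cells and so bear on a global rise.

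The proteasome is the barrel-shaped protease that degrades ubiquitin-tagged proteins in the cytosol and nucleus. Its 20S core has outer rings of alpha subunits (Psma) and inner rings of beta subunits (Psmb), and 3 of the beta subunits carry the active sites. Psmb5 gives the chymotrypsin-like, Psmb6 the caspase-like and Psmb7 the trypsin-like activity. In cells exposed to interferon and in many blood cells, Psmb8, Psmb9 and Psmb10 are built in instead of Psmb5, Psmb6 and Psmb7, giving the immunoproteasome, which cuts peptides suited to MHC class I. The 19S regulator has a ring of ATPases (Psmc), which unfold the substrate, and non-ATPases (Psmd), which bind and remove ubiquitin. Psme1 to Psme4 encode activators that open the core without ATP.

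Values are FPKM, in which fragments are divided by transcript length and library total, so levels can be compared between genes. The spike-in normalised table is used unless raw FPKM is named, and a fold is a difference of mean log2 values turned back to a linear scale. Genes were called at an adjusted p under 0.05. Hmgn1 was used as a check of the labels. Its raw FPKM was 60.1, 67.3 and 58.5 in wild type, 77.2, 71.9 and 73.4 with Hmgn1 overexpression and 127, 125 and 126 in Ts1Rhr. The groups did not overlap in either mutant, although the gap was narrow with overexpression. Wild-type replicate 1 stood apart in Rn45s, a ribosomal RNA precursor, with a raw FPKM of 10510 against 325 to 4495 in the other libraries. The markers of early B cells were present in each library, with the 13 listed genes summing to 1580 to 3110 raw FPKM. Myeloid RNA was more abundant, with a sum of 14276 to 37126 raw FPKM over 19 genes, most of it Lyz2. Of the 4 red cell genes listed, the globins Hbb-b1 and Hba-a1 were listed at 0 in all libraries and Klf1 reached at most 0.512 raw FPKM, while Car2 ran from 35.9 to 118.

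Promoter sequence is shown for the catalytic subunits Psmb9, Psmb8, Psmb5 and Psmb6, each of which holds a pattern marked below. Psmb10 held none of the patterns searched, and no RefSeq window was at hand for Psmb7. Neither of these is shown. In RefSeq gene order on GRCm38.p6, Psmb9, Tap1, Psmb8 and Tap2 are consecutive, and Psmb9 and Tap1 are read in opposite directions from a shared stretch. Tap1 and Tap2 form the transporter that carries proteasome products into the endoplasmic reticulum. The stretch of 225 bases between their starts lies at chr17:34187331-34187555 and is printed on the minus strand, toward Psmb9. Capitals mark a GC box, GGGCGG, and a CCAAT box, which reads ATTGG on this strand.
Psmb9 to Tap1: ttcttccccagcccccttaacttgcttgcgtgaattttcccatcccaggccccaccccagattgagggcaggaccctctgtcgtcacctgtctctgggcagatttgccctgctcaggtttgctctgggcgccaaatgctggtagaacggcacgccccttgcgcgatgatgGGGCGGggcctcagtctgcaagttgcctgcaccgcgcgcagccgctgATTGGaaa
For Psmb8, the 250 bases before the start lie at chr17:34197945-34198194 on the plus strand, and capitals mark the pattern TTCNNNGAA of a gamma-interferon activation site.
Psmb8: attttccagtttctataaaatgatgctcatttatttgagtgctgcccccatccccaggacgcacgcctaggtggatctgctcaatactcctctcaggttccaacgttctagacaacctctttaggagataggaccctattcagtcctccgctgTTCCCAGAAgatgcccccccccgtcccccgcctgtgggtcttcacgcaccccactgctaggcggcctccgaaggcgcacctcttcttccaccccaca
The same length is given for Psmb5 at chr14:54617996-54618245 on the minus strand and for Psmb6 at chr11:70525107-70525356 on the plus strand. In both, capitals mark TGACNNNGC, the core of the antioxidant response element, which the proteasome regulator Nfe2l1 can bind.
Psmb5: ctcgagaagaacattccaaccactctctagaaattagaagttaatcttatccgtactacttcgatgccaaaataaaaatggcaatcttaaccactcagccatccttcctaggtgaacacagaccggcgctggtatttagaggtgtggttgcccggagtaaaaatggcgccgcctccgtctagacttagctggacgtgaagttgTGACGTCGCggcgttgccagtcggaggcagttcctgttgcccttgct
Psmb6: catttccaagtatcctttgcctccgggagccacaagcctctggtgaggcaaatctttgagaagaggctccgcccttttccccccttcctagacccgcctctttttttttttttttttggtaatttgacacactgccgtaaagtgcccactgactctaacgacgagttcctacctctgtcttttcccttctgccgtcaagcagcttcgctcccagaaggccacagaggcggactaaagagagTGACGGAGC
RefSeq windows were at hand for 36 of the 43 members, and each pattern was searched in the 250 bases before the start on both strands. TGACNNNGC was found in 5 of the 36 (Psmb5, Psmb6, Psmc6, Psmd9 and Psmd12), against 10.2% of 32851 windows over all genes. TTCNNNGAA was found in Psmb8 alone among the members, against 7.02% of windows. A pair of interferon regulatory factor half-sites, GAAA repeated with any 2 bases between, was found in Psmb3, Psmd4 and Psmd9, against 2.98% of windows. The GC box was in 21 members, or 58.3%, against 32.7% of windows, and the CCAAT box in 14 members, or 38.9%, against 33.8%. Such matches describe letters and not binding.

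Members differed in level by a factor of 1111 between the highest and the lowest mean over the 9 libraries, and by 35.4 without Psma8 and Psmb11. Psmd14, the 19S enzyme that removes ubiquitin chains, had the highest mean at 286 FPKM, followed by the alpha ring subunit Psma1 at 276. Median levels of the 14 shared core subunits and the 17 subunits of the 19S regulator were close, at 85.6 and 86.9 FPKM. Levels inside each particle were not even: core members ran from 27.1 (Psma5) to 276 FPKM and 19S members from 30.3 (Psmc2) to 286, although these proteins are built in at equal numbers. The constitutive catalytic subunits lay at 115 (Psmb7), 50.7 (Psmb5) and 46.3 FPKM (Psmb6).

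The immunoproteasome subunits were unequal among themselves. Psmb8 had a mean of 72.1 FPKM over the 9 libraries, above its counterpart Psmb5. Psmb10 had 16.0 and Psmb9 10.2 FPKM, both below their counterparts Psmb7 and Psmb6. Chaperones of the 19S base ranged from 8.09 (Psmd10) to 45.9 FPKM (Psmd9), and the activators from 33.9 (Psme4) to 64.9 FPKM (Psme3). Psma8 had 2.32 FPKM and Psmb11 0.257, near the floor of about 0.1 that the normalised table holds for genes at 0. In 7 members, among them Psme1 (with Emc9), Psme4 (with Erlec1), Psmd1 (with Htr2b) and Psmd10 (with Atg4a), the gene overlaps another row of the tables in RefSeq. The sources used here do not say whether counting used strand, so their reads cannot be told apart in the overlap.

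**Figure D1:**
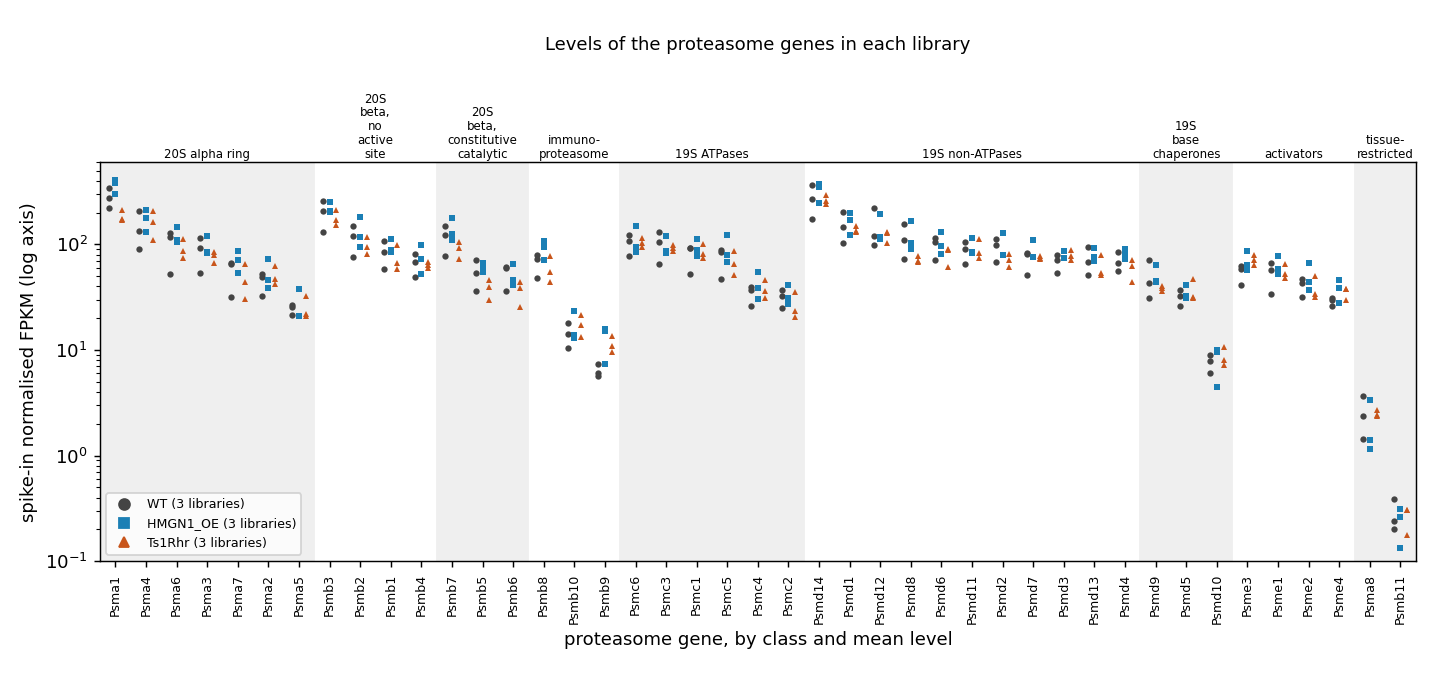
Spike-in normalised FPKM (log axis) of the 43 members in each of the 9 libraries, grouped by class and ordered by mean level; each point is 1 library. Most core and 19S genes lie within 1 band, and Psmb9, Psmb10, Psmd10, Psma8 and Psmb11 lie below it, with Psmb11 at a mean of 0.257 FPKM.

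The medians of the core and of all tested genes both shifted from library to library in the normalised table. The median log2 level of all tested genes was lowest in wild-type replicate 3 (3.39) and highest in Hmgn1-overexpressing replicate 2 (4.09). How far single members moved alike was not tested. The median core subunit was multiplied by 0.797 in wild-type replicate 3 and by 1.40 in Hmgn1-overexpressing replicate 2 on going from raw to normalised FPKM, with the other 7 libraries between 0.912 and 1.25. The median log2 FPKM of the core was 6.79, 6.47 and 5.73 in wild type, 6.42, 6.86 and 6.42 with Hmgn1 overexpression and 6.51, 6.19 and 5.97 in Ts1Rhr. All other libraries but Hmgn1-overexpressing replicate 2 lay within the range of wild type. Raw medians were 6.46, 6.39 and 6.06, then 6.43, 6.38 and 6.38, then 6.49, 6.24 and 6.11. The 19S medians were closer still on raw FPKM, between 6.22 and 6.43 in all 9 libraries. The median SD within a group was 0.20 on the log2 scale for all 43 members on raw FPKM and 0.25 for all tested genes. It was 0.37 and 0.35 on normalised FPKM. Among them the members took 0.574% to 0.744% of the summed raw FPKM of a library.

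**Figure D2:**
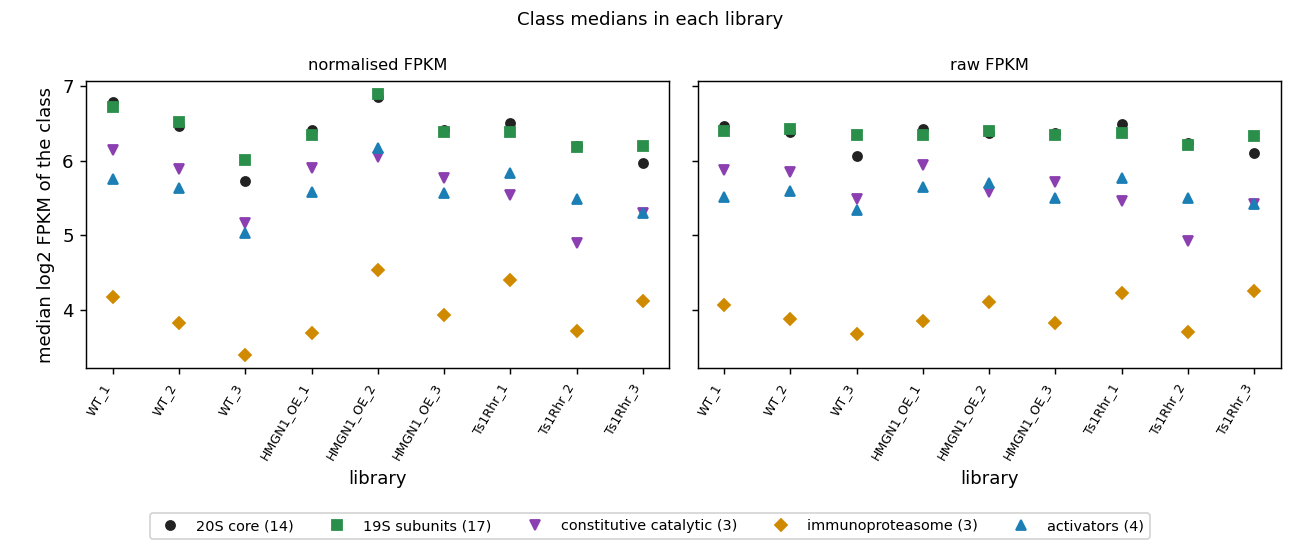
Median log2 FPKM of 5 classes of proteasome genes in each library, from normalised FPKM (left) and raw FPKM (right); a symbol is 1 class in 1 library. Core and 19S medians lie closer together across libraries on the right, where the 19S medians span 6.22 to 6.43.

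In Ts1Rhr against wild type, the median differences of the 20S core and 19S genes were below 0 on normalised FPKM, where that of all tested genes was above 0. Of the 42 tested members 18 had a higher and 24 a lower mean log2 level in Ts1Rhr, with a median difference of -0.06 against 0.12 over all tested genes, of which 59.9% were higher, so the members lay 0.18 below the median gene. The medians were -0.01 and 0.01 on raw FPKM, where 21 members and 51.0% of tested genes were higher. The normalised table did not scale all genes of a library alike. In Ts1Rhr replicate 1 the median core subunit was multiplied by 1.01, while the median log2 level of all tested genes went from 3.69 to 3.91. In wild-type replicate 2 these were 1.06, and 3.69 to 3.62. The part of this scaling in the difference of 0.18 was not tested. Among the 14 core genes 3 were higher and 11 lower, with a median of -0.13, and among the 17 genes of the 19S regulator 7 were higher and 10 lower, with a median of -0.07. On raw FPKM these splits were 5 and 9, and 9 and 8. No member was called by limma, beside 62 of the 10878 tested genes, or 0.57%. At an unadjusted p under 0.05 there was 1 member, Psmb9, beside 19.5% of tested genes. The libraries did not overlap for 3 members, with Psmb9 and Psme3 higher and Psma1 lower, or 7.14% of members beside 30.2% of tested genes (21.7% higher and 8.43% lower).

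Psma1, which forms part of the alpha ring, had the largest difference among the shared core genes on normalised FPKM, while on raw FPKM Psmb6 had (-0.50). Psma1 was at 343, 272 and 223 FPKM in wild type, 383, 405 and 300.3 with Hmgn1 overexpression and 213, 175 and 170 in Ts1Rhr. The 3 Ts1Rhr libraries were the lowest of the 9. The difference from wild type was -0.57 (SE 0.29) on the log2 scale, a fold of 0.672 with an adjusted p of 0.283, and on raw FPKM -0.39 (SE 0.15) with an adjusted p of 0.114. At the other end of the ring Psma2 had a fold of 1.15 (log2 0.20, SE 0.29, adjusted p 0.735), with 52.2, 49.2 and 32.1 FPKM in wild type and 63.0, 42.2 and 46.7 in Ts1Rhr. The other 5 alpha subunits had folds between 0.861 and 1.14.

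The constitutive catalytic subunits were all lower on average in Ts1Rhr, and none passed the test. Psmb5 was at 70.9, 53.6 and 35.9 FPKM in wild type, 59.7, 66.2 and 54.6 with Hmgn1 overexpression and 46.4, 29.8 and 39.3 in Ts1Rhr. Psmb6 was at 60.5, 59.4 and 35.9, at 40.9, 65.5 and 45.9, and at 44.3, 25.7 and 38.9 FPKM in the same groups. Psmb7 was at 151, 123 and 77.3, at 109, 180 and 124, and at 106, 92.0 and 73.4 FPKM. In each of the 3 genes wild-type replicate 3 lay among the Ts1Rhr libraries. Folds against wild type were 0.736 for Psmb5 (log2 -0.44, SE 0.27, adjusted p 0.377), 0.700 for Psmb6 (log2 -0.51, SE 0.29, adjusted p 0.329) and 0.794 for Psmb7 (log2 -0.33, SE 0.30, adjusted p 0.549). With raw FPKM the differences were -0.42, -0.50 and -0.23 with adjusted p of 0.143, 0.108 and 0.313, and Psmb5 and Psmb6 then had no overlap between Ts1Rhr and wild type. Of all 42 tested members, 4 were higher and 5 lower in Ts1Rhr without overlap on raw FPKM, or 21.4%. Among tested genes 37.6% were without overlap on raw FPKM, 18.5% lower. The 4 beta subunits without an active site had folds of 0.875 (Psmb2; log2 -0.19, SE 0.31, adjusted p 0.761) to 0.987 (Psmb4; log2 -0.02, SE 0.28, adjusted p 0.978). Psmb2 was at 150, 119 and 75.5 FPKM in wild type and 118, 93.7 and 81.9 in Ts1Rhr, and Psmb4 at 81.4, 68.2 and 49.1 and at 68.7, 64.2 and 59.6. The sign for Psmb4 turned on raw FPKM, to 0.04.

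**Figure D3:**
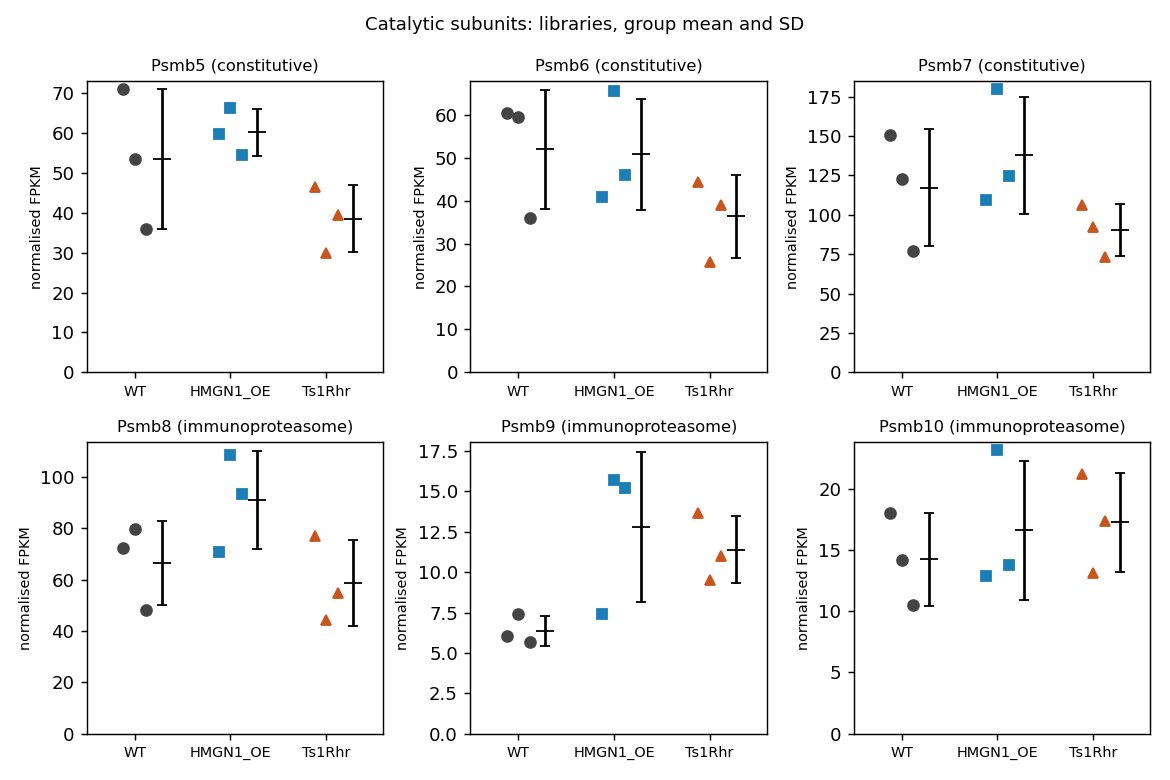
Normalised FPKM (linear axis from 0) of the constitutive catalytic subunits (top) and the immunoproteasome subunits (bottom) in 3 libraries per group, with the group mean and SD as bars beside the points. Psmb9 is at 5.66 to 7.43 FPKM in wild type and 9.53 to 13.7 in Ts1Rhr, while wild type and Ts1Rhr overlap in the other 5 genes.

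Psmb9 had the largest difference of the immunoproteasome subunits in Ts1Rhr. It was at 6.05, 7.43 and 5.66 FPKM in wild type, 7.42, 15.7 and 15.2 with Hmgn1 overexpression and 13.7, 9.53 and 11.004 in Ts1Rhr. All Ts1Rhr libraries lay above all wild-type libraries, and Hmgn1-overexpressing replicate 1 lay within the wild-type range. In Ts1Rhr the fold was 1.78 (95% interval 1.16 to 2.73, log2 0.83, SE 0.29), with an unadjusted p of 0.0110 and an adjusted p of 0.1497 in limma, short of the threshold. Raw Psmb9 was at 5.93, 7.84 and 6.73 in wild type, 8.49, 11.8 and 14.1 with overexpression and 11.4, 9.28 and 11.98 in Ts1Rhr. There both mutants lay above wild type without overlap, and the adjusted p in Ts1Rhr was 0.0620. It was below 0.05 on raw FPKM when Hmgn1-overexpressing replicate 1 (0.0486) or 3 (0.0474) was left out. The other libraries left out in turn gave 0.0684 to 0.221. On normalised FPKM leaving out 1 library gave log2 differences of 0.69 to 0.95 with adjusted p from 0.0635 to 0.384.

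Psmb8, the most abundant of the 3, and Psmb10 were not called in Ts1Rhr either. Psmb8 was at 72.2, 79.6 and 48.2 FPKM in wild type, 70.7, 109 and 93.5 with overexpression and 77.1, 44.2 and 54.8 in Ts1Rhr, a fold of 0.876 in Ts1Rhr (log2 -0.19, SE 0.28, adjusted p 0.740). Psmb10 was at 18.03, 14.2 and 10.5 FPKM, at 12.9, 23.2 and 13.8, and at 21.2, 13.1 and 17.4, a fold of 1.22 (log2 0.29, SE 0.29, adjusted p 0.596). In both genes the Ts1Rhr libraries overlapped those of wild type. The difference between Psmb9 and these genes was not tested. The 12 interferon-responsive genes of the marker list summed to 33.3 to 41.4 raw FPKM in wild type, 36.7 to 39.4 with overexpression and 32.8 to 35.8 in Ts1Rhr. Gbp2 and Oas1a were the largest, with means of 15.8 and 8.05, while Isg15 and Ifit1 had 1.95 and 0.623. Gbp2 was at 13.1 to 16.0 in wild type and 15.4 to 17.9 in Ts1Rhr, and Oas1a at 6.79 to 11.5 and 5.30 to 7.88. Of the 7 tested genes 3 were higher on average in Ts1Rhr. The part of an interferon response in the Psmb9 values was not tested.

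Markers of cell types differed between the same groups. B lineage markers summed to 1580 to 2298 raw FPKM in wild type, 2286 to 3110 with overexpression and 2589 to 2990 in Ts1Rhr. Cd24a was the largest of them, with a mean of 1174 raw FPKM over the 9 libraries. On raw FPKM 11 of the 13 were higher on average in Ts1Rhr and 4 were called, beside 8.85% of tested genes called, 4.29% higher. Il7r went the other way, at 145 to 171 raw FPKM in wild type and 117 to 141 in Ts1Rhr. Myeloid markers summed to 24644 to 37126, 14276 to 29815 and 15623 to 18032 raw FPKM, with all 17 tested genes lower in Ts1Rhr and 8 of them called on raw FPKM, beside 4.56% of tested genes lower. Stromal markers such as Sparc and Bgn summed to 54.5 to 89.4, 3.06 to 11.4 and 4.197 to 12.4. None of the B lineage or myeloid markers was called on normalised FPKM in either mutant. In Ts1Rhr 4 of the 4 tested stromal markers were called there, all lower, beside 0.147% of tested genes lower. With overexpression all 4 were lower on average. Of these 3 were called on normalised and 1 on raw FPKM, beside 0.0919% and 0.0368% of tested genes. Car2, a carbonic anhydrase on the red cell list, was at 35.9, 55.3 and 42.5 raw FPKM in wild type, 80.8, 55.4 and 91.8 with overexpression and 90.7, 118 and 109.6 in Ts1Rhr. It rose in Ts1Rhr by 1.21 on the log2 scale (SE 0.25, adjusted p 0.0410 in limma) on normalised and 1.26 (SE 0.21, adjusted p 0.0277) on raw FPKM. On normalised FPKM the Car2 call ended with no filter (0.0765) or no intensity trend (0.0655), and without wild-type replicate 1 or 3 or any 1 Ts1Rhr library (0.0953 to 0.205). Car2 was named after its values were seen. The T and NK cell markers summed to at most 3.71 raw FPKM in any library. The part of these cell types in the proteasome values was not tested.

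Among the activators Psme3, the nuclear PA28 gamma, was called in Ts1Rhr against wild type on raw FPKM. With all 9 libraries it was the 1 member called in either table. Its normalised levels were 62.5, 58.0 and 41.4 FPKM in wild type, 56.7, 87.3 and 63.3 with overexpression and 71.5, 80.0 and 63.8 in Ts1Rhr. The Ts1Rhr libraries lay above wild type by a narrow margin of 62.5 against 63.8. The fold was 1.34 (log2 0.43, SE 0.26) with an adjusted p of 0.364. Raw FPKM was 51.3, 55.3 and 51.6 in wild type, 58.0, 62.5 and 61.0 with overexpression and 69.2, 81.9 and 69.7 in Ts1Rhr, so the 3 groups did not overlap. On that table Psme3 rose in Ts1Rhr by 0.48 (SE 0.12) on the log2 scale, a fold of 1.39 with an adjusted p of 0.0438, beside 8.85% of tested genes called, 4.29% higher, and 30.9% at an unadjusted p under 0.05. Leaving out any single wild-type or Ts1Rhr library, or Hmgn1-overexpressing replicate 1, gave an adjusted p of 0.0523 to 0.164 on raw FPKM. With 1 spike-in factor per library on raw FPKM the adjusted p was 0.377. The call was kept without Hmgn1-overexpressing replicate 2 (0.0429) or 3 (0.0438).

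Psme1 and Psme2 form the interferon-inducible PA28 ring and lie next to each other with Emc9 between them. Psme1 was at 67.3, 57.2 and 33.9 FPKM in wild type, 52.9, 78.2 and 58.5 with overexpression and 65.2, 52.9 and 48.3 in Ts1Rhr. Psme2 was at 47.2, 43.0 and 31.4, at 43.7, 66.7 and 36.8, and at 50.2, 33.6 and 32.0 FPKM. The groups overlapped in both genes. In Ts1Rhr the folds were 1.09 for Psme1 (log2 0.12, SE 0.28, adjusted p 0.848) and 0.946 for Psme2 (log2 -0.08, SE 0.28, adjusted p 0.901). Psme4, the large activator PA200, had a fold of 1.197 (adjusted p 0.570).

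Within the 19S regulator, the non-ATPases with the highest and lowest fold in Ts1Rhr against wild type were Psmd3 and Psmd8, both subunits of its lid. Psmd8 was at 155, 110 and 72.1 FPKM in wild type, 103, 165 and 91.1 with overexpression and 78.0, 69.3 and 68.5 in Ts1Rhr. Its lowest wild-type library lay within the Ts1Rhr range, and the fold was 0.671 (log2 -0.58, SE 0.31, adjusted p 0.304). On raw FPKM Psmd8 was at 122, 103 and 91.0 in wild type and 76.9, 71.3 and 75.4 in Ts1Rhr, with no overlap and an adjusted p of 0.0658. Psmd3 was at 71.0, 78.6 and 53.4 in wild type and 78.4, 89.3 and 70.6 in Ts1Rhr, a fold of 1.18 (log2 0.24, SE 0.25, adjusted p 0.597). The ATPases ranged from Psmc2 (fold 0.828, log2 -0.27, SE 0.27, adjusted p 0.588) to Psmc4 (fold 1.11, log2 0.15, SE 0.27, adjusted p 0.791). Psmc2 was at 32.7, 36.9 and 24.9 FPKM in wild type and 35.4, 20.6 and 23.4 in Ts1Rhr, and Psmc4 at 37.0, 39.4 and 26.0 and at 45.7, 31.1 and 36.2. Of the chaperones that assemble the base, Psmd9 was at 71.2, 42.6 and 31.2 in wild type and 40.1, 38.7 and 36.1 in Ts1Rhr, with a fold of 0.840 (log2 -0.25, SE 0.29, adjusted p 0.647). Psmd5 was at 36.7, 32.2 and 26.1 and at 31.2, 47.0 and 31.7, with a fold of 1.15 (log2 0.20, SE 0.25, adjusted p 0.685). On normalised FPKM all these groups overlapped.

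**Figure D4:**
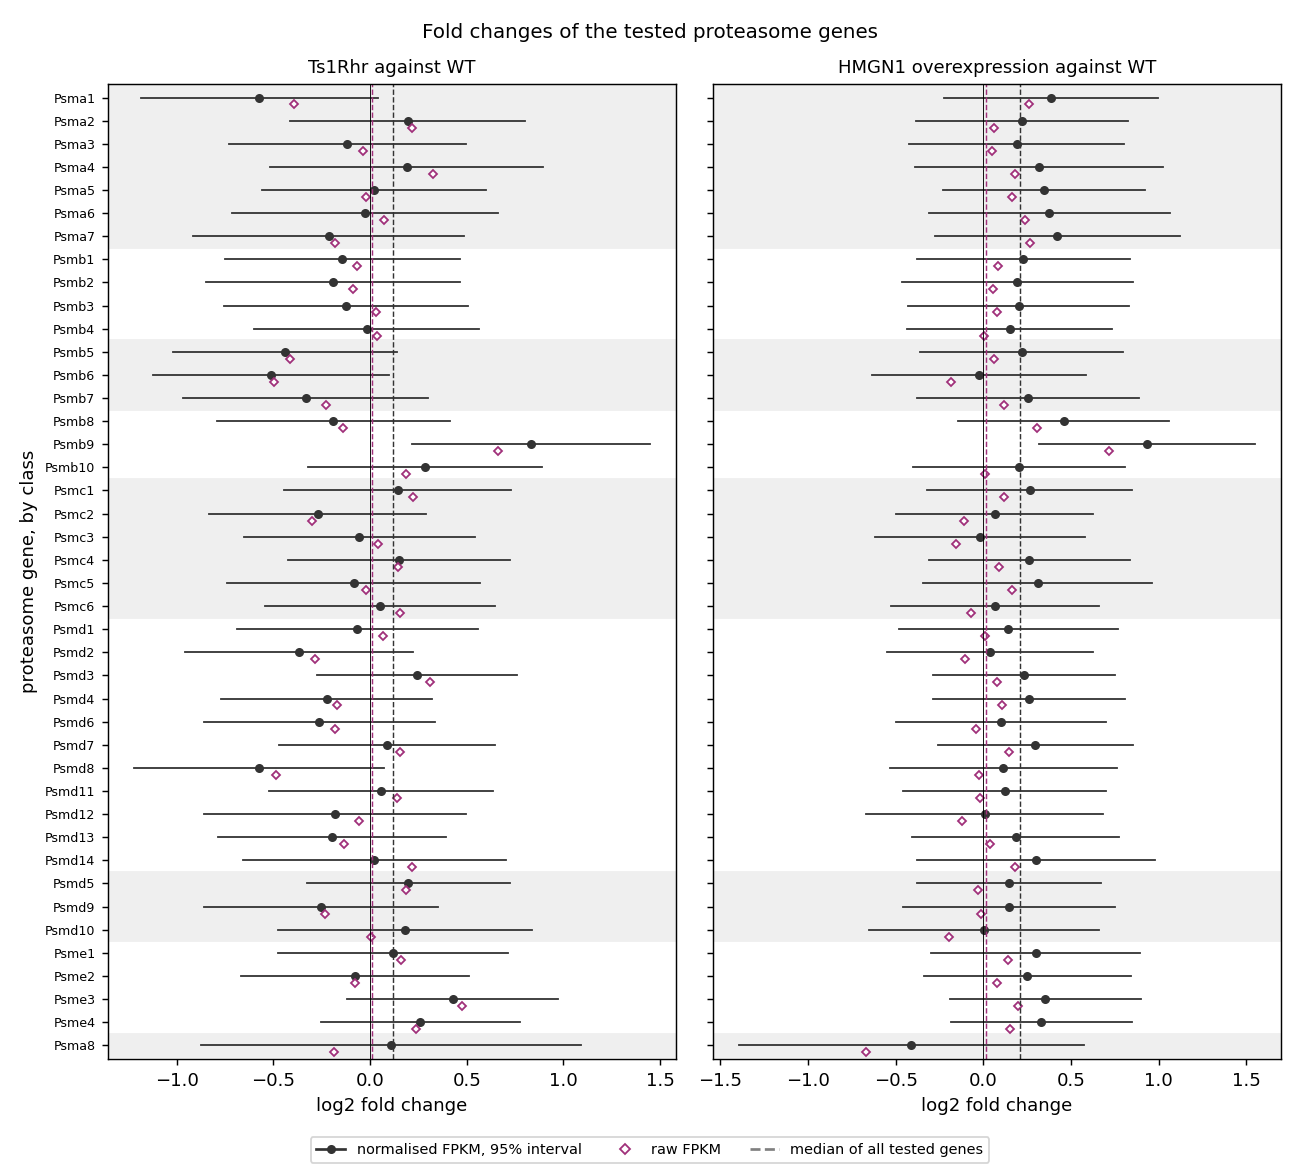
Log2 fold changes of the 42 tested members against wild type, for Ts1Rhr (left) and Hmgn1 overexpression (right); filled points with 95% intervals are normalised FPKM, open diamonds raw FPKM, and dashed lines the median of all tested genes in each table. With Hmgn1 overexpression 39 of 42 filled points lie above 0, around the all-gene median of 0.21, and in Ts1Rhr 18 do.

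With Hmgn1 overexpression the members' median difference was close to that of all tested genes. Of the 42 tested members 39 were higher on average than in wild type, with a median difference of 0.22 on the log2 scale against 0.21 over all tested genes, of which 72.7% were higher. With raw FPKM 29 were higher, beside 51.6% of tested genes, with medians of 0.07 and 0.01. No member was called by limma, beside 0.0919% of tested genes on normalised and 0.0368% on raw FPKM. At an unadjusted p under 0.05 there was 1 member, Psmb9, in either table, beside 11.7% and 14.6% of tested genes. No member was without overlap on normalised FPKM, beside 17.4% of tested genes, and 2 were on raw FPKM (Psmb9 and Psme3, both higher), beside 18.1% of tested genes, with 9.81% higher. This comparison and the one of Ts1Rhr share their wild-type libraries.

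Without Psma8, the class medians with overexpression ran from 0.14 to 0.46 on normalised FPKM. On raw FPKM they ran from -0.03 (chaperones) to 0.31 (immunoproteasome). The normalised medians were 0.35 for the alpha ring, 0.20 for beta subunits without an active site and 0.22 for the constitutive catalytic subunits. The ATPases had 0.17, the non-ATPases and the chaperones 0.14 and the activators 0.31. The immunoproteasome median was 0.46, from 0.21 (Psmb10, SE 0.29, adjusted p 0.783) through 0.46 (Psmb8, SE 0.28, adjusted p 0.536) to 0.93 (Psmb9, SE 0.29, adjusted p 0.288). The Psmb9 fold of 1.91 had a 95% interval of 1.25 to 2.92 and an unadjusted p of 0.00523. Leaving out 1 library at a time gave log2 differences of 0.75 (without Hmgn1-overexpressing replicate 2) to 1.29 (without replicate 1), with adjusted p from 0.0729 to 0.832, so the test was passed in none of these. For the constitutive partners, the log2 differences were 0.22 (Psmb5, adjusted p 0.754), -0.02 (Psmb6, 0.978) and 0.26 (Psmb7, 0.738), each with a SE between 0.27 and 0.30. Psme1, Psme2 and Psme3 had folds of 1.23 (log2 0.30, SE 0.28, adjusted p 0.676), 1.19 (log2 0.25, SE 0.28, adjusted p 0.724) and 1.28 (log2 0.35, SE 0.26, adjusted p 0.592).

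None of the extremes of the other classes with overexpression was called. In the alpha ring they were Psma7 (53.3, 87.4 and 70.4 FPKM against 66.0, 64.8 and 31.9 in wild type, fold 1.34, log2 0.42, SE 0.33, adjusted p 0.617) and Psma3 (83.3, 119 and 85.6 against 114, 92.4 and 54.1, fold 1.14, log2 0.19, SE 0.29, adjusted p 0.805). Among beta subunits without an active site they were Psmb1 (87.8, 114 and 85.3 against 107, 85.2 and 57.9, log2 0.23, SE 0.29, adjusted p 0.755) and Psmb4 (52.5, 98.2 and 72.3 FPKM, log2 0.15, SE 0.28, adjusted p 0.840). All of these overlapped wild type. Among the ATPases Psmc5 was at 68.0, 122 and 79.8 FPKM against 88.1, 83.8 and 47.0 (log2 0.31, SE 0.31, adjusted p 0.694), and Psmc3 at 83.5, 119 and 86.9 against 130, 106 and 65.0 (log2 -0.02, SE 0.28, adjusted p 0.984). Among the non-ATPases Psmd14 was at 351, 375 and 247 FPKM against 368, 267 and 176 (log2 0.30, SE 0.32, adjusted p 0.707), and Psmd12 at 113, 193 and 119 against 219, 119 and 97.7 (log2 0.01, SE 0.32, adjusted p 0.996). In these genes replicate 2 was the highest of the overexpressing libraries, as it was in the core median. The chaperones Psmd9 (44.1, 64.3 and 45.2 FPKM) and Psmd10 (4.46, 10.1 and 9.50, against 7.82, 9.004 and 6.02 in wild type) had log2 differences of 0.14 (SE 0.29, adjusted p 0.857) and 0.003 (SE 0.31, adjusted p 0.997). The lowest difference of any member was that of the testis subunit Psma8, named after its values were seen, at 1.39, 3.34 and 1.14 FPKM against 3.70, 1.44 and 2.34 in wild type. It was -0.41 (SE 0.47, adjusted p 0.729) on the log2 scale, and -0.67 (SE 0.40, adjusted p 0.446) on raw FPKM. Leaving out 1 library moved it between -0.88 and -0.074. In Ts1Rhr Psma8 was at 2.68, 2.44 and 2.39 FPKM, with a difference of 0.11 (SE 0.47, adjusted p 0.920) that was -0.19 on raw FPKM.

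Between the mutants, the proteasome genes lay lower in Ts1Rhr than with Hmgn1 overexpression, with 36 of 42 lower and a median difference of -0.29 on the log2 scale against -0.09 over all tested genes, of which 37.5% were higher. With raw FPKM 22 of 42 were lower, 50.3% of tested genes were higher and the medians were -0.05 and 0.003. No member and no other gene was called by limma in either table (0%). At an unadjusted p under 0.05 there were 4 members on normalised FPKM (Psma1, Psmb5, Psmb8 and Psmd8), beside 4.37% of tested genes, and 6 on raw FPKM, beside 8.85%. The libraries did not overlap for 6 members, all lower in Ts1Rhr, or 14.3% beside 8.39% of tested genes, 6.6% lower. These were Psma1 (fold 0.514, log2 -0.96, SE 0.29), Psmb5 (0.632), Psmb7 (0.665), Psmd8 (0.620), Psmd4 (0.713) and Psmd9 (0.759), with an adjusted p of 0.988 each. They were named after their values were seen. On raw FPKM 7 members were lower and 3 higher in Ts1Rhr without overlap, or 23.8% of members. Among tested genes 12.9% were without overlap there, 5.99% lower and 6.89% higher. The 7 lower members included all 3 constitutive catalytic subunits, at log2 differences of -0.48 (Psmb5), -0.32 (Psmb6) and -0.35 (Psmb7). Psmb6 overlapped between the mutants on normalised FPKM. The 3 higher members were 1 ATPase, 1 non-ATPase and 1 activator. The immunoproteasome subunits had differences of -0.65 (Psmb8), -0.10 (Psmb9) and 0.08 (Psmb10) on normalised FPKM, all with overlap. Psme1, Psme2 and Psme3 had -0.18, -0.33 and 0.07.

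The balance of immunoproteasome to constitutive subunits was compared as a log2 ratio within each library, which removes only a factor common to both genes. The normalised table did not scale both genes alike, so its ratios differ from the raw ones. In wild-type replicate 1 Psmb9 went from 5.93 raw to 6.05 normalised FPKM, and Psmb6 from 50.9 to 60.5. Psmb9 over Psmb6 was -3.32, -3.00 and -2.66 in wild type, -2.46, -2.06 and -1.59 with overexpression and -1.70, -1.43 and -1.82 in Ts1Rhr. Both mutants lay above wild type without overlap. As linear ratios the geometric means were 0.125, 0.244 and 0.319. The ratio was 2.54-fold that of wild type in Ts1Rhr (log2 difference 1.35, SE 0.22) and 1.94-fold with overexpression (0.96, SE 0.31). The exact two-sided permutation test gave p = 0.1 for each, the smallest that 3 against 3 libraries allow, or 0.225 after adjustment over the 9 ratio tests. Raw folds were 2.24 and 1.87, again without overlap. The mutants overlapped each other (difference 0.39, exact p = 0.300).

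Psmb10 over Psmb7 was -3.06, -3.11 and -2.88 in wild type, -3.08, -2.95 and -3.18 with overexpression and -2.32, -2.81 and -2.08 in Ts1Rhr. Here the Ts1Rhr libraries lay above both other groups, by 0.62 (SE 0.23) over wild type and 0.67 (SE 0.22) over overexpression, each with an exact p of 0.1 and an adjusted p of 0.225. On raw FPKM the difference from wild type was 0.42 with overlap (exact p = 0.200). With overexpression the ratio differed from wild type by -0.05 (SE 0.10, exact p = 0.600). Psmb8 over Psmb5 was 0.03, 0.57 and 0.42 in wild type, 0.25, 0.71 and 0.78 with overexpression and 0.73, 0.57 and 0.48 in Ts1Rhr. All groups overlapped, with differences from wild type of 0.25 (exact p = 0.300) in Ts1Rhr and 0.24 (exact p = 0.400) with overexpression. Whether the pairs differ from each other was not tested.

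As a share of the summed FPKM of the 6 catalytic subunits, Psmb8, Psmb9 and Psmb10 made up 25.4%, 30.0% and 30.2% in wild type, 30.3%, 32.2% and 35.3% with overexpression and 36.3%, 31.2% and 35.4% in Ts1Rhr. The means were 28.5% ± 2.69, 32.6% ± 2.51 and 34.3% ± 2.73 (SD, n = 3). Both mutants lay above the wild-type libraries, by as little as 30.2% against 30.3% for overexpression. The raw means were 29.0%, 32.8% and 33.8%. Most of the share was Psmb8, whose level was the highest of the 3.

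**Figure D5:**
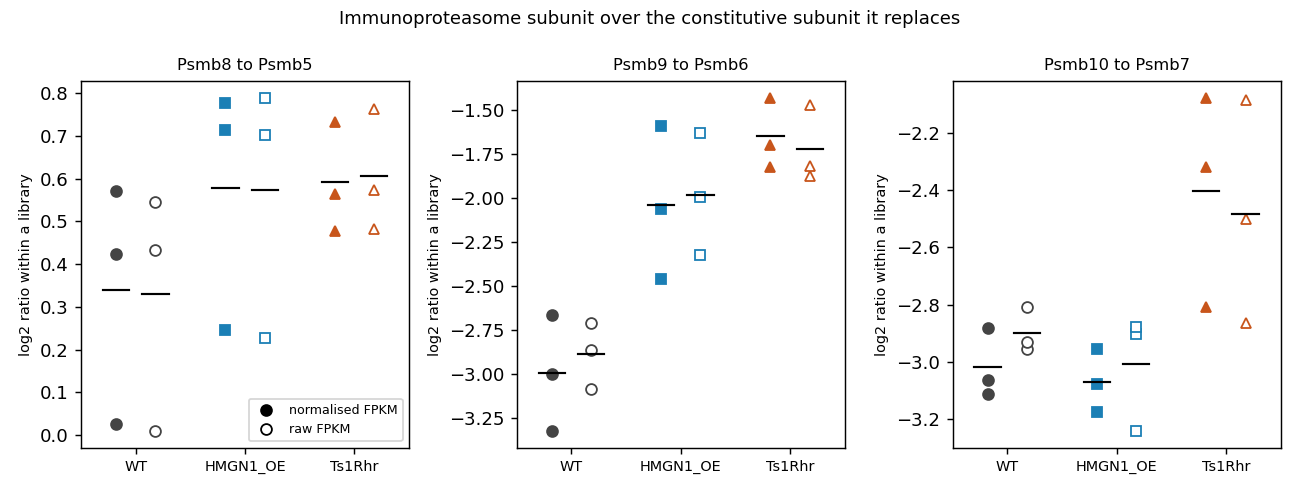
Log2 ratio of each immunoproteasome subunit to the constitutive subunit it replaces, within each library, from normalised FPKM (filled) and raw FPKM (open), with bars at the group mean. For Psmb9 to Psmb6, wild type lies between -3.32 and -2.66 and Ts1Rhr between -1.82 and -1.43 on normalised FPKM.

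On normalised FPKM none of the listed genes around the proteasome was called against wild type by limma in either mutant: 0 of 22 tested associated genes (assembly chaperones, bound enzymes and shuttles), 0 of 9 in the Nfe2l1 feedback list, 0 of 5 ubiquitin and activating enzyme genes, and 0 of 13 genes of MHC class I presentation, beside 0.57% of tested genes in Ts1Rhr and 0.0919% with overexpression. At an unadjusted p under 0.05 there were 1, 0, 0 and 2 in Ts1Rhr, beside 19.5% of tested genes, and 2, 0, 0 and 2 with overexpression, beside 11.7%.

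Psmg1, an assembly chaperone of the alpha ring that lies in the Ts1Rhr segment, was at 6.04, 6.36 and 3.68 FPKM in wild type, 5.49, 6.24 and 8.36 with overexpression and 11.6, 8.11 and 8.31 in Ts1Rhr. The Ts1Rhr libraries did not overlap those of wild type (fold 1.77, log2 0.82, adjusted p 0.147). Nfe2l1, the factor that raises proteasome genes when the proteasome is inhibited, was at 30.9, 23.2 and 22.2 in wild type and 19.8, 15.1 and 19.4 in Ts1Rhr, again without overlap (fold 0.715, adjusted p 0.283, raw 0.0601). With overexpression it was at 22.2, 29.9 and 19.4 (fold 0.931). Tap1, the divergent neighbour of Psmb9, was at 18.8, 23.8 and 16.4 in wild type, 27.1, 31.3 and 33.2 with overexpression and 27.8, 26.8 and 24.0 in Ts1Rhr. Both mutants lay above wild type, with folds of 1.57 (adjusted p 0.319) and 1.34 (adjusted p 0.307), and on raw FPKM overexpression overlapped wild type. Tap2 had folds of 1.42 (adjusted p 0.430) and 1.08 (adjusted p 0.833). Irf1, a factor of the interferon response, had folds of 1.24 (adjusted p 0.662) and 1.05 (adjusted p 0.903).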

How the data were processed

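The authors deposited 2 FPKM tables, raw and normalised, with 1 column for each of 9 libraries. Per the submitters' processing notes, HISAT, Cufflinks 2.0.0 and mm9 were used; the sources used here give no settings. The labels say that spike-ins served normalisation per cell; the depth is unknown. Members and lists were chosen with earlier results of these data known. Of 23398 rows, 92 spike-ins and 27 rows with dates as symbols were left out. The 10878 genes averaging 1 raw FPKM or more were tested in 1 limma 3.58.1 fit (R 4.3.3) of all libraries, variance trended on intensity, on log2 of the normalised FPKM, or log2(raw FPKM + 0.1). Such folds understate the change of low genes. P-values were adjusted by Benjamini-Hochberg over all tested genes. Ratios within libraries used an exact permutation test (scipy 1.17.1). Named in full were the catalytic, PA28 and called members and each class's highest and lowest, and of pathway genes those called and 5 chosen genes. Some genes of the pathway and marker lists are not reported here and are left out of the lists' counts. The fit was tested on simulated data with independent noise for each gene. These data held no shift common to all genes of a library, so the test does not cover such shifts. Sequences and gene order came from RefSeq on GRCm38.p6, not the build of the files.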

Additional observations from a re-analysis of the deposited data

How the results depend on the processing

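No member was called on normalised FPKM in any of the 3 comparisons under any alternative run on that table. In Ts1Rhr against wild type 1 member (Psme3) was called on raw FPKM with 0.1 or with 1 added, and leaving out 1 library at a time gave 0 to 2. The number of all genes called in that comparison moved more, from 62 to 267 with only the 6 libraries compared, 8 with no filter, 693 with libraries shifted to the same median and 963 on raw FPKM. It was 46 higher and 16 lower on normalised FPKM, and 467 and 496 on raw FPKM. Without Ts1Rhr replicate 2 or 3, or wild-type replicate 1 or 3, at most 3 genes were called on raw FPKM, and on normalised FPKM leaving out 1 library gave 4 to 203. With overexpression 10 genes were called, against 4 on raw FPKM or with no filter and 19 with 1 added or no intensity trend. Leaving out libraries on raw FPKM was chosen after seeing the data. The depth behind an FPKM value is unknown, so no counting error could be given, and 3 libraries a group limit what could be called.

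The labels number the replicates in each group, but same-numbered libraries did not deviate together, with correlations of -0.13 to 0.16 on normalised and -0.13 to 0.07 on raw FPKM. A library correlated best with its own number in 3 of 18 combinations on normalised FPKM and 2 of 18 on raw FPKM. With the replicate block 0 members were called in each comparison, while all genes called in Ts1Rhr against wild type went from 62 to 119, and from 963 to 314 on raw FPKM. Psme3 had an adjusted p of 0.0726 with the block on raw FPKM.

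Among single genes and ratios most values kept their sign. On raw FPKM, the sign turned in Ts1Rhr against wild type for Irf1 (-0.036), Psma8 (-0.19) and Psmb4 (0.037), and in overexpression against wild type for Psmd10 (-0.19), Psmd12 (-0.12) and Psmd9 (-0.013), and in Ts1Rhr against overexpression for Psme1 (0.015). With 1 added to raw FPKM, the sign turned in Ts1Rhr against wild type for Irf1 (-0.033), Psma8 (-0.16) and Psmb4 (0.036), and in overexpression against wild type for Psmd10 (-0.17), Psmd12 (-0.12) and Psmd9 (-0.013), and in Ts1Rhr against overexpression for Psme1 (0.015). With libraries shifted to the same median, the sign turned in Ts1Rhr against wild type for Irf1 (-0.058), Psma8 (-0.026), Psme1 (-0.016) and Tap2 (-0.025), and in overexpression against wild type for Psma3 (-0.016), Psmb10 (-0.000922), Psmb4 (-0.056), Psmd10 (-0.20), Psmd12 (-0.20) and Psmd9 (-0.062). With 1 spike-in factor per library on raw FPKM, the sign turned in Ts1Rhr against wild type for Irf1 (-0.060), Psma8 (-0.21) and Psmb4 (0.013), and in overexpression against wild type for Psmd10 (-0.056). With the replicate block on raw FPKM, the sign turned in Ts1Rhr against wild type for Irf1 (-0.036), Psma8 (-0.19) and Psmb4 (0.037), and in overexpression against wild type for Psmd10 (-0.19), Psmd12 (-0.12) and Psmd9 (-0.013), and in Ts1Rhr against overexpression for Psme1 (0.015). Leaving out 1 library at a time turned the sign of some differences. In Ts1Rhr against wild type, the differences ran from -0.092 to 0.17 for Irf1, -0.024 to 0.33 for Psma2, -0.24 to 0.45 for Psma8, -0.47 to 0.027 for Psmb2 and -0.22 to 0.15 for Psmb4. There they also ran from -0.036 to 0.28 for Psmc4, -0.53 to 0.069 for Psmd9, -0.17 to 0.32 for Psme1, -0.28 to 0.041 for Psme2 and -0.035 to 0.28 for Tap2. In overexpression against wild type, the differences ran from -0.28 to 0.044 for Nfe2l1, -0.12 to 0.42 for Psma3, -0.012 to 0.43 for Psmb1, -0.060 to 0.39 for Psmb10 and -0.074 to 0.38 for Psmb4. There they also ran from -0.039 to 0.45 for Psmb5, -0.27 to 0.12 for Psmb6, -0.017 to 0.47 for Psmb7, -0.30 to 0.20 for Psmc3 and -0.21 to 0.38 for Psmd10. There they also ran from -0.24 to 0.35 for Psmd12, -0.13 to 0.47 for Psmd9 and -0.11 to 0.020 for the ratio Psmb10 to Psmb7. In Ts1Rhr against overexpression, the differences ran from -0.084 to 0.35 for Psmb10, -0.46 to 0.086 for Psmb9, -0.057 to 0.25 for Psme3 and -0.15 to 0.11 for the ratio Psmb8 to Psmb5. The cause of these turns was not tested.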
